A study of Homo sapiens with 9 samples.

Results

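The interleukin-1 (IL-1) family cytokines, their receptors and their inhibitors were followed across 9 Affymetrix Human Gene 1.0 ST arrays. The 10 genes were IL1A, IL1B, IL36G, IL18, IL33, IL1RN, IL1R1, IL1RAP, IL1R2 and IRAK3, out of 18417 genes with a probe set of their own. The group was chosen by the measured log2 signal of IL1A, which was lower under both TFPI labels than under the empty vector label, so each of its differences from empty vector is a description given without a p-value. The family was put to a test only in the contrast of TFPIβ with TFPIα, and nothing is read from the counts of calls against empty vector. All 10 genes had a probe set, and 8 of them, against 11232 of the 18417 genes, passed the filter that keeps probe sets with a log2 signal of at least 5 in some array.

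Tissue factor pathway inhibitor (TFPI) is an inhibitor of coagulation made as a secreted α isoform and a membrane-anchored β isoform. The labels describe RNA of SK-BR-3, an ERBB2-amplified breast cancer cell line, in 3 groups of 3 arrays: cells that stably carried TFPIβ cDNA, cells that stably carried TFPIα cDNA, and cells with the same pTOPO plasmid left empty. Every group had thus been transfected and drug-selected, and each was a pool of stable cells rather than a clone. The 3 arrays of a group came from separate RNA isolations of that pool, so the errors and p-values measure the spread between isolations and not between independently made cell lines.

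TFPI itself had log2 signals of 5.55, 5.79 and 5.81 in the arrays labelled TFPIβ and of 5.66, 5.81 and 5.51 in those labelled TFPIα. In those labelled empty vector they were 5.81, 6.48 and 6.45. TFPI was thus not raised under either TFPI label but lower on average, by -0.53 for TFPIβ and -0.59 for TFPIα, with overlapping groups. According to the study, the transfected cDNA was cloned without its untranslated regions, so array probes for those regions missed it. This signal does not bear out the labels, and how far its probes read the cDNA was not tested. The study reports TFPI as raised under both TFPI labels by quantitative RT-PCR. It reports the same for its arrays with PLIER, an algorithm that drops dim probes. Neither was repeated here. Several cell type markers went against the labelled cell line. ERBB2 averaged a log2 signal of 5.88 over the 9 arrays, while the basal keratins KRT5 and KRT14 averaged 12.64 and 12.43. Of the luminal list, the keratins KRT8 and KRT19 averaged 5.86 and 4.88. GRB7, GATA3 and FOXA1 averaged 5.15, 5.31 and 4.83, and EPCAM and ELF5 averaged 2.76 and 3.72, under the filter. In contrast, KRT18 (by the brighter of its 2 probe sets), KRT7 and XBP1 averaged 10.40, 10.45 and 9.21. Low ERBB2, GRB7, KRT8, KRT19, GATA3 and FOXA1 beside high KRT5 and KRT14 are not the pattern of an ERBB2-amplified luminal line. Of the luminal list only KRT18, KRT7 and XBP1 were high. Whether the arrays hold RNA of the labelled cells was not settled by these values. The groups are therefore named by their labels, and every difference between them rests on those labels. The array medians lay between 4.783 and 4.877, and arrays correlated with Pearson r between 0.953 and 0.990 within groups and between 0.944 and 0.987 between groups.

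IL-1α, encoded by IL1A, is stored in epithelial cells and acts as an alarm signal when cells are damaged or stressed. It binds the receptor encoded by IL1R1, which recruits the accessory chain encoded by IL1RAP and signals through MYD88 and the IRAK kinases to NF-κB and AP-1. The pathway is held back at several levels, by the receptor antagonist of IL1RN, by the decoy receptor of IL1R2, which binds ligand without signalling, and by IRAK3, a kinase-dead member of the IRAK family that blocks the receptor complex.

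Among the ligands, IL1A had log2 signals of 5.77, 6.49 and 5.83 in the arrays labelled TFPIβ and of 5.01, 5.78 and 5.85 in those labelled TFPIα, against 6.97, 7.67 and 7.78 in those labelled empty vector. All 6 arrays with a TFPI label were below all 3 with the empty vector label, and the arrays of both TFPI labels overlapped each other. The means were 6.03 ± 0.40 for TFPIβ, 5.55 ± 0.47 for TFPIα and 7.47 ± 0.44 for empty vector (SD, n = 3 each). On the log2 scale the difference from empty vector was -1.44 for TFPIβ and -1.92 for TFPIα, each with a standard error of 0.31, or 2.72-fold and 3.80-fold lower. Ranked from the lowest difference among 17482 probe sets, IL1A was at place 9 for TFPIβ and at place 8 for TFPIα. Each value is a signal from bulk RNA, in which fewer cells that express a gene and less RNA per cell cannot be told apart.

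The replicate numbers of the labels pair the arrays across groups, and the differences of IL1A were also taken within each number. For TFPIβ the differences from the empty vector array of the same number were -1.19, -1.18 and -1.96. For TFPIα they were -1.96, -1.88 and -1.93. The number 1 array was the lowest of its group under every label, and the TFPIα differences within numbers spanned far less than the signals themselves.

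**Figure D1:**
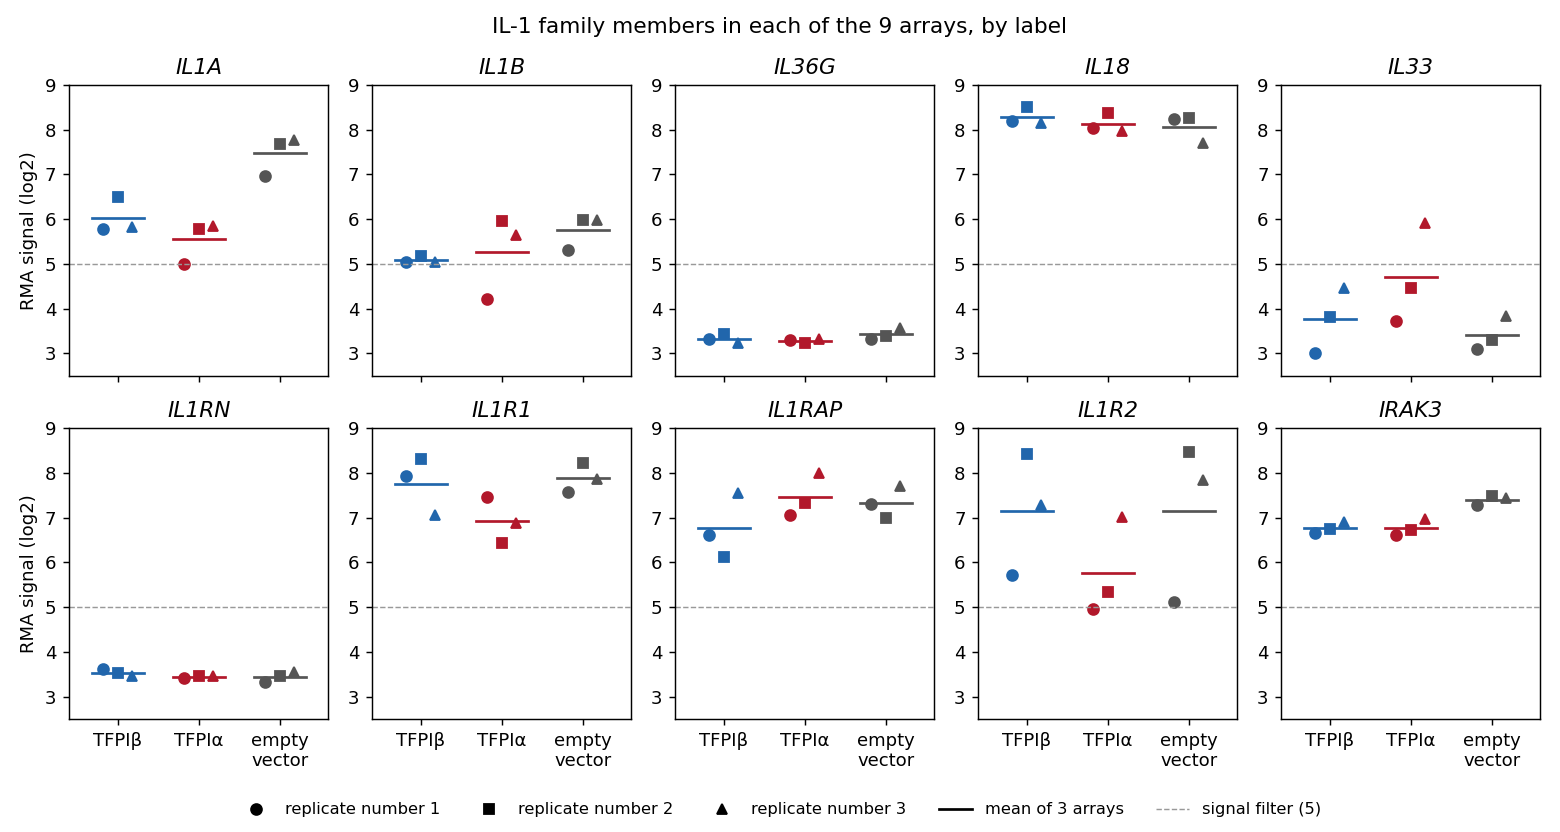
RMA signal (log2) of the 10 IL-1 family genes in each array, with TFPIβ, TFPIα and empty vector from left to right, marker shapes for the replicate number, a bar for the mean of 3 arrays and a dashed line at the signal filter of 5. For IL1A and IRAK3 all 6 arrays with a TFPI label lie below the 3 empty vector arrays, while IL1R2 spreads from 4.96 to 8.47 and IL36G and IL1RN stay under the filter.

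IRAK3, the inhibitor of the receptor complex, was the other gene of the family with this pattern. Its log2 signals were 6.65, 6.75 and 6.90 for TFPIβ and 6.62, 6.73 and 6.96 for TFPIα, against 7.28, 7.49 and 7.43 for empty vector. The arrays of both TFPI labels covered nearly the same range and all lay below the empty vector arrays. The mean was 6.77 ± 0.12 for TFPIβ and 6.77 ± 0.17 for TFPIα, against 7.40 ± 0.11 for empty vector (SD, n = 3 each), and both differences from empty vector were -0.63 on the log2 scale with a standard error of 0.12, or 1.55-fold lower. Within replicate numbers the differences were -0.63, -0.74 and -0.53 for TFPIβ and -0.66, -0.75 and -0.47 for TFPIα.

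IL1A and IRAK3 were thus 2 of the 8 genes past the filter that lay wholly below empty vector under both TFPI labels, a pattern held by 341 of 17482 probe sets, or 1.95%. For TFPIβ alone, 3 of 8 genes (IL1A, IL1B and IRAK3) were wholly lower, beside 3.74% of all probe sets. For TFPIα alone, 3 of 8 (IL1A, IL1R1 and IRAK3) were wholly lower, beside 8.85%. These counts come from the contrasts that chose the group, and nothing is read from them about the family.

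At an adjusted p under 0.05 (limma, Benjamini-Hochberg over 17482 probe sets) with at least a 2-fold change, 0 of the 8 genes were called against empty vector, beside 0% of all probe sets for TFPIβ and 0.00572%, a single probe set, for TFPIα. At an unadjusted p under 0.05 the share of all probe sets was 4.72% for TFPIβ and 14.2% for TFPIα, and the family is not counted there because these contrasts chose it. The sizes of the IL1A and IRAK3 differences are given as measured and not as calls.

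The 250 bases before the start of IL1A and of IRAK3 are shown because these genes carry the common pattern. Both are RefSeq sequence on GRCh38.p14, read 5′ to 3′ along the strand of the gene, with matches to the motifs searched in capitals. The IL1A window is chr2:112784494-112784743 on the minus strand and the IRAK3 window is chr12:66188964-66189213 on the plus strand.
IL1A: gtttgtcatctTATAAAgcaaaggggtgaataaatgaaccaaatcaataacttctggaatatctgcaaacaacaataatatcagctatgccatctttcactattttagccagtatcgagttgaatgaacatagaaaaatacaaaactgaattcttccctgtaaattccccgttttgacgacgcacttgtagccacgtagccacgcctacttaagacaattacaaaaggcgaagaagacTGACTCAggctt
IRAK3: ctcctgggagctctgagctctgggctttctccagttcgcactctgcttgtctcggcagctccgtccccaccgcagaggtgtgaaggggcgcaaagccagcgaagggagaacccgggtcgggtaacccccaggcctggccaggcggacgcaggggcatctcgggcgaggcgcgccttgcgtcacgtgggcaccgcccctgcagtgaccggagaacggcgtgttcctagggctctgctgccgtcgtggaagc
Both strands were searched for AP-1 (TGANTCA), for the TATA box (TATAAA) and for the NF-κB motif. The IL1A window held an AP-1 match whose first base is at -12 from the start and a TATA box match at -239, which do not overlap. The IRAK3 window held no match, which says only that these letters are not in it.

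Of the 10 genes, 9 had a window in the table, all but IL18. An AP-1 match was found in 2 of the 9, those of IL1A and IL1RN (at -223), beside 6.57% of 35116 windows of the same length. A TATA box match was found in 1 of the 9, that of IL1A, beside 10.7% of windows, and an NF-κB match in 0 of the 9, beside 5.21%. None of these matches is evidence of a bound site.

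IL1B, the gene next to IL1A on chromosome 2, encodes IL-1β, which is cut to its active form by caspase-1 and signals through the same receptor. Its log2 signals were 5.04, 5.17 and 5.05 for TFPIβ and 4.21, 5.96 and 5.64 for TFPIα, against 5.32, 5.99 and 5.99 for empty vector. The TFPIβ arrays were tightly grouped and all below empty vector, while those of TFPIα ran from the lowest value of all to the level of empty vector. The difference from empty vector was -0.68 for TFPIβ and -0.50 for TFPIα on the log2 scale, each with a standard error of 0.41. The TFPIα difference was 0.03 without its replicate 1, while within replicate numbers it was -1.11, -0.03 and -0.35. Several of these signals are close to the filter of 5.

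IL18, which encodes another caspase-1 substrate and is constitutively made by many epithelia, had log2 signals of 8.19, 8.51 and 8.16 for TFPIβ and of 8.03, 8.37 and 7.98 for TFPIα, against 8.23, 8.26 and 7.70 for empty vector. All 3 groups overlapped. The differences from empty vector were 0.22 for TFPIβ and 0.06 for TFPIα, with a standard error of 0.18. With single arrays left out the TFPIβ difference ran from 0.042 to 0.32 and that of TFPIα from -0.12 to 0.16.

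IL33 encodes a nuclear alarm cytokine of epithelial and endothelial cells. Its log2 signals were 3.02, 3.81 and 4.46 for TFPIβ and 3.73, 4.47 and 5.91 for TFPIα, against 3.09, 3.29 and 3.83 for empty vector. It passed the filter only through replicate 3 of TFPIα, and the number 3 array was the highest under each label. The difference from empty vector was 1.30 for TFPIα and 0.36 for TFPIβ, with a standard error of 0.56, and the TFPIα difference was 0.70 without its replicate 3.

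IL36G, a ligand of stressed keratinocytes, ranged from 3.23 to 3.58 on the log2 scale over the 9 arrays and IL1RN, the receptor antagonist, from 3.32 to 3.61. Both stayed under the filter in every array and entered no comparison. Signals this low do not show that the transcripts are absent.

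Among the receptor genes, IL1R1, the signalling receptor of both IL-1α and IL-1β, had log2 signals of 7.93, 8.30 and 7.05 for TFPIβ and of 7.45, 6.44 and 6.89 for TFPIα, against 7.57, 8.23 and 7.87 for empty vector. The TFPIα arrays were all below empty vector, whereas the TFPIβ arrays were on both sides of it. The difference from empty vector was -0.13 for TFPIβ and -0.96 for TFPIα, with a standard error of 0.36. With single arrays left out the TFPIβ difference ran from -0.40 to 0.22 and that of TFPIα from -1.22 to -0.72.

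IL1RAP, the accessory chain of the receptors for IL-1, IL-33 and IL-36, had log2 signals of 6.62, 6.12 and 7.54 for TFPIβ and of 7.06, 7.33 and 8.00 for TFPIα, against 7.31, 6.98 and 7.71 for empty vector. Within every replicate number the TFPIβ array was the lowest of the 3, although the groups overlapped. The difference from empty vector was -0.57 for TFPIβ and 0.13 for TFPIα, with a standard error of 0.38. The TFPIβ difference was -0.96 without TFPIβ replicate 3 and -0.25 without TFPIβ replicate 2, and that of TFPIα ran from -0.14 without TFPIα replicate 3 to 0.33 without TFPIα replicate 1.

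IL1R2, the decoy receptor and the neighbour of IL1R1 on chromosome 2, was the most variable gene of the family. Its log2 signals were 5.71, 8.43 and 7.28 for TFPIβ and 4.96, 5.34 and 7.01 for TFPIα, against 5.11, 8.47 and 7.83 for empty vector. The number 1 array was the lowest under every label, on average 2.13 below numbers 2 and 3 on the log2 scale. The difference from empty vector was 0.01 for TFPIβ and -1.37 for TFPIα, with a standard error of 1.00. With single arrays left out it ran from -1.01 to 0.72 for TFPIβ and from -2.38 to -0.70 for TFPIα, so neither value is well determined.

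**Figure D2:**
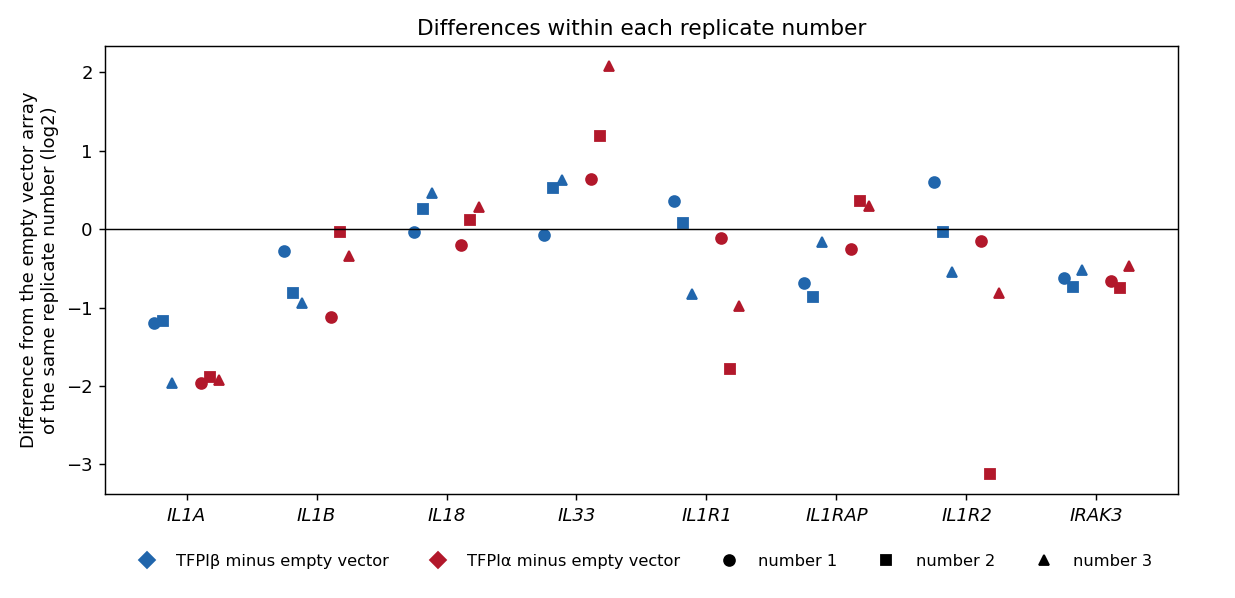
Difference of each TFPIβ and TFPIα array from the empty vector array of the same replicate number (log2), for the 8 genes past the filter, with marker shapes for the number and a line at 0. All 6 differences lie below 0 for IL1A, from -1.18 to -1.96, for IRAK3, from -0.47 to -0.75, and for IL1B, where 1 of them is only -0.03.

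The genes differed widely in how much they varied between RNA isolations of 1 pool. The within-group SD of the log2 signal was 0.136 for IRAK3, at percentile 33.8 of all probe sets past the filter, and 1.44 for IL1R2, at percentile 99.9. It was at percentile 70.8 for IL18 and between percentiles 90.2 and 98.2 for IL1A, IL1B, IL33, IL1R1 and IL1RAP. Thus 7 of the 8 genes varied more between isolations than the median probe set, whose SD was 0.1752. IL33 is among the 7, but it passed the filter only through a TFPIα array. For IL33 the filter therefore favours a wide spread, which is not read as a result.

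The test of TFPIβ against TFPIα asked whether the isoform labels differ for the family, in a contrast the choice of the group did not use. At an adjusted p under 0.05 with a 2-fold change, 0 of 8 genes were called, beside 0% of 17482 probe sets, and the lowest adjusted p of any probe set was 0.532 (limma). At an unadjusted p under 0.05 it was 1 of 8, beside 8.63%. The groups were apart for 0 of 8 genes, beside 13.3% of all probe sets.

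IL1R1 was that gene, with an adjusted p of 0.532 (limma). It was 0.83 higher for TFPIβ than for TFPIα on the log2 scale (95% interval 0.00 to 1.65). The widest interval was that of IL1R2, with a difference of 1.37 (-0.93 to 3.67, adjusted p = 0.587). IL1RAP had a difference of -0.70 (-1.58 to 0.18, adjusted p = 0.533), which ran from -1.09 to -0.38 with single arrays left out. That of IL33 was -0.94 (-2.22 to 0.33), given as a description because the gene passed the filter only through a TFPIα array.

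For IL1A the isoform labels differed by 0.48 (95% interval -0.23 to 1.20, adjusted p = 0.561, limma). With 3 arrays each, that interval holds 0 and also differences up to 1.20. The value was 0.21 without TFPIα replicate 1, and within replicate numbers 1, 2 and 3 it was 0.77, 0.71 and -0.03. IRAK3 had the narrowest interval, at -0.01 (-0.27 to 0.26, adjusted p = 0.989). IL18 differed by 0.16 (-0.26 to 0.58, adjusted p = 0.713) and IL1B by -0.18 (-1.12 to 0.76, adjusted p = 0.87). The signs of the IL1B and IRAK3 differences turned when single arrays were left out.

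With the replicate number as a block, the unadjusted p was below 0.05 for 3 of 8 genes, beside 15.4% of all probe sets. One of them was IL33, for which the filter favours a difference and which is not read as a result. The others were IL1A (0.06 to 0.91 by its 95% interval) and IL1RAP (-1.15 to -0.26), each at an adjusted p of 0.32 (limma), so neither was called. IL1R1 was no longer among them, with an adjusted p of 0.332 (limma).

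**Figure D3:**
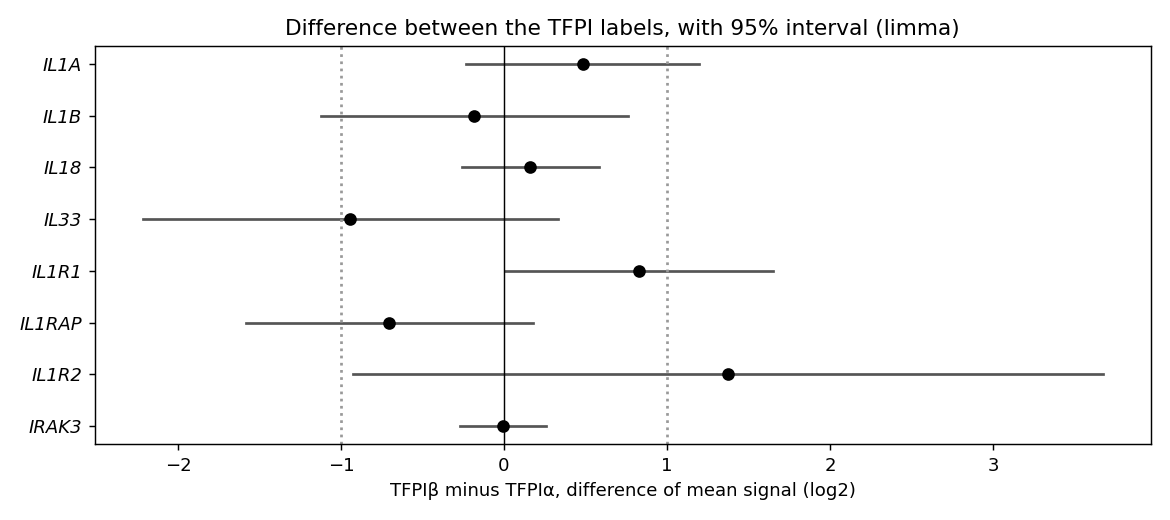
Difference of mean log2 signal, TFPIβ minus TFPIα, for the 8 genes past the filter, with points for the estimate, bars for the 95% interval of limma, a solid line at 0 and dotted lines at a 2-fold difference. The interval is narrowest for IRAK3 (-0.27 to 0.26) and widest for IL1R2 (-0.93 to 3.67), and that of IL1R1 begins at 0.00.

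Likeness to IL1A was described by the Pearson r of log2 signals over the 9 arrays, which share the group differences, and over their deviations from the group means, which share the isolation. Over the 9 arrays IRAK3 had r = 0.91 (Spearman rho 0.93), at place 15 of 11231 genes, and r = 0.75 without the 2 arrays farthest from the IL1A median. IL1B had r = 0.69 and IL1R2 r = 0.60 over the 9 arrays, and 0.45 and 0.26 without those 2 arrays, so their likeness rests partly on them. Over the deviations IL1B had r = 0.81 and IL1R2 r = 0.83, against 0.57 for IRAK3, so IL1B and IL1R2 were more like IL1A in their spread between isolations and IRAK3 over the groups.

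The 5 genes most like IL1A over the 9 arrays were RAB3GAP2 (r = 0.961), CD55 (0.959), ADCY3 (0.954), SERPINA3 (0.953) and TBC1D25 (0.937). SERPINA3, an acute-phase protease inhibitor, had log2 signals of 7.85, 8.17 and 8.13 for TFPIβ and of 6.83, 7.13 and 8.00 for TFPIα, against 8.83, 10.20 and 9.72 for empty vector. CD55, a cell-surface inhibitor of complement, had log2 signals of 8.24, 8.42 and 8.26 for TFPIβ and of 8.06, 8.23 and 8.24 for TFPIα, against 8.70, 8.61 and 8.80 for empty vector. Over the deviations the 5 were LINC00341 (0.987), TOGARAM1 (0.968), KRTAP5-11 (0.968), CES1 (0.968) and MPLKIP (0.966), and the 2 lists held no gene in common. With Spearman's rho 2 of the first 5 and 1 of the second 5 stayed, so the lists depend on the measure.

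**Figure D4:**
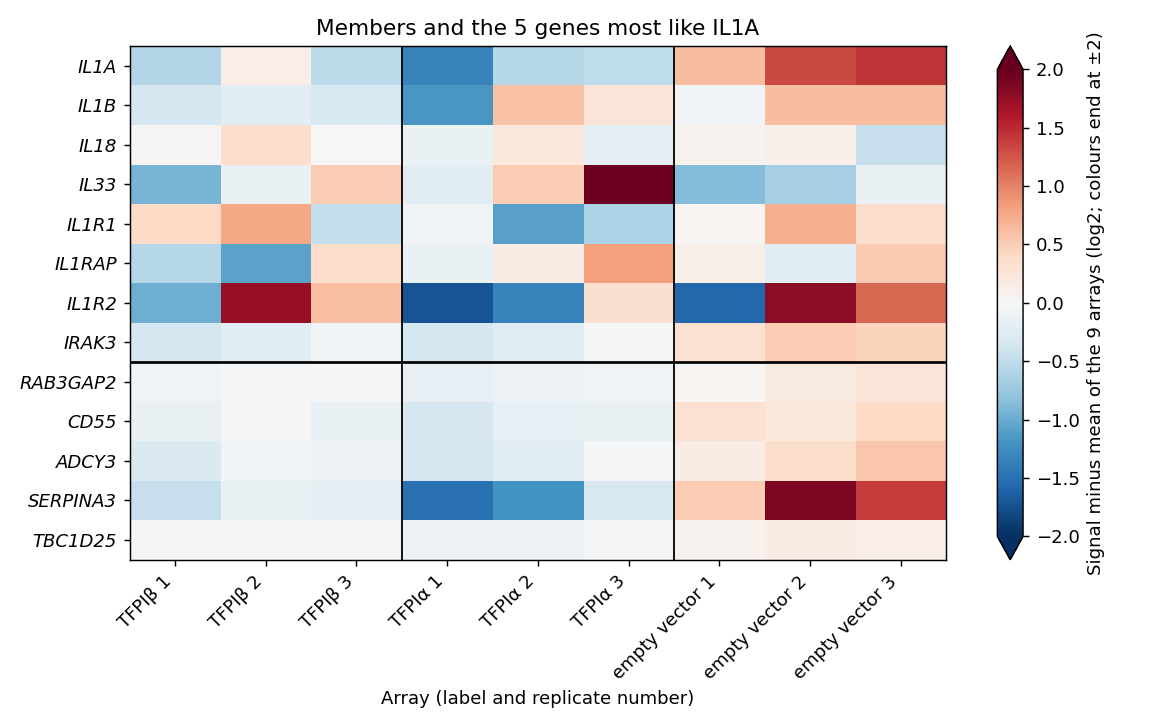
Signal minus the mean of the 9 arrays (log2, colours ending at ±2) for the 8 IL-1 family genes past the filter and, under the line, the 5 genes most like IL1A, with the arrays of TFPIβ, TFPIα and empty vector from left to right. IL1A, IRAK3 and the 5 genes are all lower in the 6 arrays with a TFPI label than in the 3 empty vector arrays. The 5 genes were picked by likeness to IL1A over these same arrays, so their pattern follows in part from that choice. The number 1 arrays are low for IL1R2 under every label.

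Genes that epithelial cells are known to induce on IL-1 stimulation were read from a list of 44 genes, of which 40 had a probe set and 29 passed the filter. On the log2 scale their difference from empty vector was below 0 for 27 of 29 for TFPIβ, with a median of -0.48, and for 26 of 29 for TFPIα, with a median of -0.32. Over all probe sets 49.5% were below 0 for TFPIβ and 50% for TFPIα. The list counts come from the contrasts that chose the group and are given as descriptions. No gene of the list was called in either direction in any comparison (limma). The TFPIα median was -0.01 without replicate 1 of TFPIα and ran from -0.54 to -0.26 without any other array of the 9. Leaving out a single array also unbalances the replicate numbers, so this shift cannot be put on that array alone. The TFPIβ median ran from -0.52 to -0.33 with single arrays left out.

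C3, the central complement component, had the widest difference of the list for TFPIα. Its log2 signals were 10.57, 11.08 and 9.91 for TFPIβ and 10.17, 9.44 and 9.95 for TFPIα, against 10.89, 11.51 and 10.85 for empty vector. The difference from empty vector was -0.57 for TFPIβ and -1.23 for TFPIα, with a standard error of 0.32. All TFPIα arrays were below empty vector, and the TFPIβ arrays overlapped it.

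The chemokine genes CCL20 and CXCL8 followed the replicate number more than the label. CCL20 had log2 signals of 4.44, 6.14 and 6.28 for TFPIβ and of 4.26, 6.29 and 7.47 for TFPIα, against 6.24, 7.12 and 7.10 for empty vector. CXCL8 had log2 signals of 5.64, 7.00 and 7.49 for TFPIβ and of 5.36, 8.49 and 8.43 for TFPIα, against 7.20, 8.28 and 7.73 for empty vector. The number 1 array was the lowest of its group in all 6 of these sets of values, and the groups overlapped for both genes. TNFAIP3, an inhibitor of NF-κB, had log2 signals of 6.76, 8.35 and 7.47 for TFPIβ and of 6.15, 7.73 and 7.15 for TFPIα, against 7.43, 8.94 and 7.74 for empty vector, and overlapped too.

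Of the 29 genes, 5 shared the pattern of IL1A, with both TFPI labels wholly below empty vector. They were CSF3, SAA1, SAA2, TNFAIP2 and SOD2, named after their values were seen, or 17.2% of the list beside 1.95% of all probe sets. This share comes from the contrasts that chose the group and from a list drawn up with earlier results of these data known. Nothing is read from it about IL-1 targets. SOD2, the mitochondrial superoxide dismutase, had log2 signals of 11.11, 11.15 and 10.70 for TFPIβ and of 10.34, 10.41 and 10.91 for TFPIα, against 11.42, 11.77 and 11.44 for empty vector. CSF3, the granulocyte colony-stimulating factor, had log2 signals of 6.19, 6.02 and 6.36 for TFPIβ and of 6.50, 6.69 and 6.98 for TFPIα, against 7.08, 7.10 and 7.25 for empty vector. SAA1 and SAA2, acute-phase proteins, are near-identical in sequence, so their probe sets may share signal and their values are uncertain as separate genes.

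**Figure D5:**
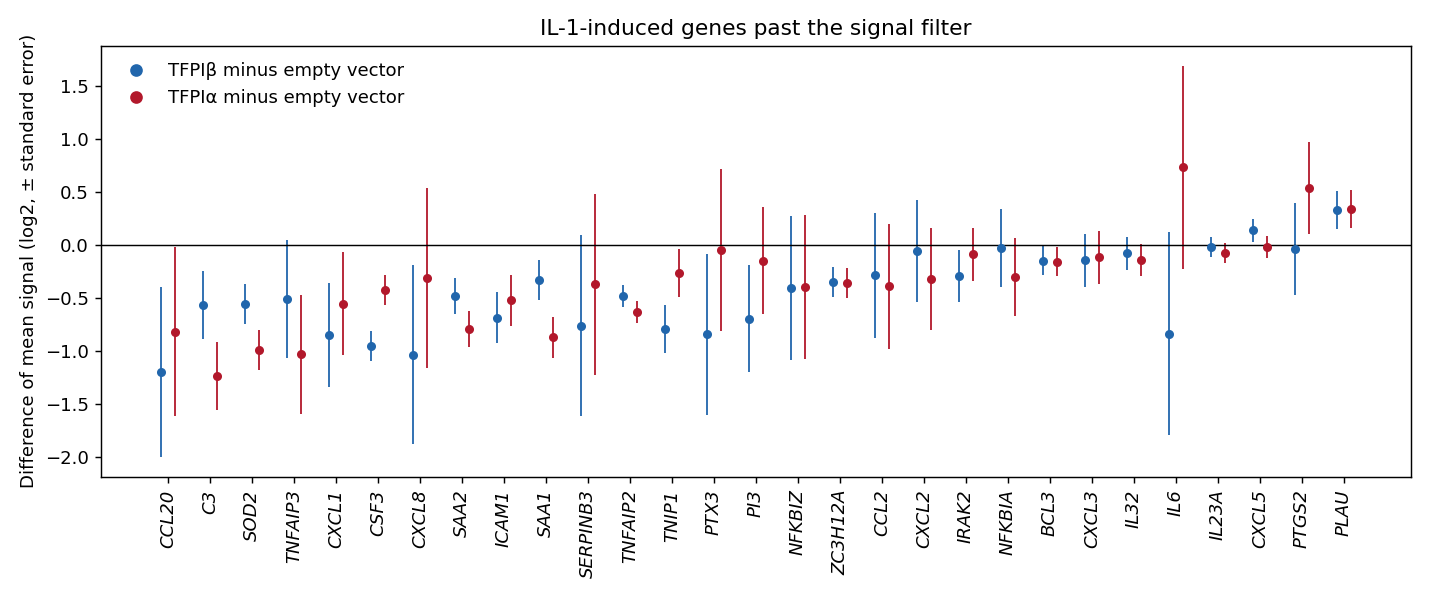
Difference of mean log2 signal from empty vector for the 29 IL-1-induced genes past the filter, with TFPIβ left of TFPIα, points for the estimate, bars for its standard error and a line at 0. For TFPIβ 27 of 29 and for TFPIα 26 of 29 points lie below 0, many with bars that cross it.

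The intracellular arm of the pathway, a list of 30 adaptors, kinases and transcription factors of which 27 had a probe set and passed the filter, had small median differences. Their median on the log2 scale was -0.07 for TFPIβ, with 21 of 27 below 0, and -0.04 for TFPIα, with 18 of 27 below 0. No gene of it was called (limma). TAB3 and TRAF3IP2, named after their values were seen, had both TFPI labels wholly below empty vector, or 7.41% of the list beside 1.95% of all probe sets. TRAF3IP2 is known mainly as an adaptor of another cytokine receptor, so this share does not speak for IL-1 signalling. For TFPIα 4 of 27 genes were wholly lower, beside 8.85% of all probe sets, and 4 were wholly higher. For TFPIβ 5 of 27 were wholly lower, beside 3.74% of all probe sets, and 0 were wholly higher. The share of all probe sets wholly higher was not counted. Nothing is read from these counts, which come from the contrasts that chose the group. MAP2K3, a kinase upstream of p38, had log2 signals of 5.92, 5.77 and 6.07 for TFPIβ and of 6.13, 6.52 and 6.84 for TFPIα, against 6.07, 5.83 and 5.98 for empty vector, so the TFPIα arrays stood above empty vector and the TFPIβ arrays did not. CHUK, the kinase IKKα, had log2 signals of 6.46, 6.17 and 7.59 for TFPIβ and of 7.06, 7.33 and 7.44 for TFPIα, against 6.83, 6.43 and 6.68 for empty vector. Its TFPIα arrays were all above empty vector, and TFPIβ replicate 3 was the highest of the 9. MAP2K6 and FOS had overlapping groups.

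Of 14 genes for processing and release of IL-1, 13 had a probe set, 10 passed the filter and 0 were called. Their median difference on the log2 scale from empty vector was -0.03 for TFPIβ and 0.10 for TFPIα. CAPN2, a subunit of the calpain that cleaves the IL-1α precursor, had log2 signals of 9.12, 9.34 and 9.45 for TFPIβ and of 9.43, 9.83 and 9.66 for TFPIα, against 9.28, 9.30 and 9.26 for empty vector, and was wholly higher for TFPIα alone. CARD16, PANX1 and S100A13 had overlapping groups in each comparison with empty vector.

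Of 13 further ligands and receptors of the family only IL1RL1 and SIGIRR passed the filter. IL1RL1, the receptor of IL-33, had log2 signals of 4.04, 4.61 and 4.81 for TFPIβ and of 3.85, 6.17 and 7.68 for TFPIα, against 4.90, 5.41 and 4.97 for empty vector. Its TFPIα arrays held both the lowest and the highest of the 9 values, and replicate 3, the highest, is also the array with the highest IL33 signal. SIGIRR, a receptor that dampens IL-1 signalling, lay between 4.55 and 5.08 in all arrays.

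Cell-cycle genes had higher mean signals for TFPIα, although none was called in any comparison (limma). All 11 genes of a proliferation list were higher on average for TFPIα than for empty vector, 10 of them wholly, with a median of 1.10 on the log2 scale. Over all probe sets 50% of the TFPIα differences were below 0. The share of all probe sets wholly higher was not counted, so nothing is read from the 10. The mean signal of the list per array was 6.58 to 8.81 for TFPIβ and 8.77 to 8.87 for TFPIα, against 7.08 to 8.14 for empty vector. For TFPIβ 5 of 11 genes were above empty vector and 6 below, with a median of -0.04. The basal epithelial list of 6 genes had means of 9.58 to 9.98 for TFPIβ and 9.65 to 9.85 for TFPIα, against 10.01 to 10.11 for empty vector. The part of either in the IL-1 family signals was not tested.

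Markers of monocytes and macrophages, major makers of IL-1 in blood and tissue, were mostly low. Of 11 markers 4 passed the filter, and the mean signal of the list was 4.06 to 4.21 for TFPIβ and 4.09 to 4.31 for TFPIα, against 4.15 to 4.36 for empty vector. The leukocyte gene PTPRC lay between 2.19 and 2.28 and the macrophage gene LYZ between 2.09 and 2.41 in the 9 arrays, and CSF1R was under the filter. CD14 and CD68, which other cells also express, lay between 6.46 and 9.12 and between 7.00 and 7.92.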

How the data were processed

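Total RNA from 9 isolations, 3 per label, was hybridised to 9 arrays. The authors normalized the scans with RMA, run within Partek software (versions not given in the sources used here), and deposited log2 signals, 1 per probe set. No source gives the log base, which was taken from the range the values span.

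Probe sets were kept if they reached a log2 signal of 5 in some array (17482 of 33297). The study describes a cut at the same value but reports more transcripts left, so its cut may not have been on these values. Symbols came from the platform annotation, in which 11838 of the 17482 have 1 symbol, 1150 several and 4494 none; each of the 10 genes had 1 probe set. One linear model over all 9 arrays was fitted with limma 3.58.1 in R 4.3.3 (lmFit, eBayes), adjusted by Benjamini-Hochberg over 17482 and checked on simulated data. A call needed an adjusted p under 0.05 and a 2-fold change. An exact permutation test of 3 against 3 arrays was not used. Figures used matplotlib 3.10.9 in Python 3.11.15.

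The genes and lists were chosen with earlier results of these data known. Named were the 10 genes, up to 4 genes per pathway list with the largest difference from empty vector, markers, TFPI and the 5 genes most like IL1A by each measure.

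Deviations from group means correlated by 0.137 to 0.594 between arrays of different labels that share a replicate number (9 pairs) and by -0.512 to 0.266 in the other 18 pairs, so the numbers were taken to pair the arrays. Alternatives were a replicate block, no filter or one at 6, other variance models, array centring, only the compared groups in the fit, a false discovery rate of 10% and each array left out.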

Additional observations from a re-analysis of the deposited data

How the results depend on the processing

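Each label had 3 RNA isolations of 1 pool. No gene of the family was called under any setting. The count of called genes was 0 in every comparison, also with the replicate number as a block. With that block IL1A had an adjusted p of 0.32 (limma) for TFPIβ against TFPIα. With single arrays left out, the difference of IL1A from empty vector ran from -1.69 to -1.29 for TFPIβ and from -2.18 to -1.65 for TFPIα, and that of IRAK3 from -0.70 to -0.58 and from -0.72 to -0.55 on the log2 scale. For TFPIβ against TFPIα the sign turned for IL1B (range -0.71 to 0.16, with 0.16 without TFPIα replicate 2 and 0.0047 without TFPIα replicate 3) and for IRAK3 (range -0.079 to 0.087, with 0.087 without TFPIα replicate 3, 0.052 without TFPIβ replicate 1 and 0.0049 without TFPIβ replicate 2). The number of genes shared with the 5 most like IL1A over the 9 arrays was 3 with no filter, 2 with Spearman's rho and 2 to 5 with single arrays left out. Over the deviations it was 1 with no filter, 1 with Spearman's rho and 1 to 3 with single arrays left out. The causes were not tested. At a filter of 6 the median of TFPIβ minus TFPIα was -0.22 for the processing list, for which fewer genes were then tested. Of the further ligands and receptors only IL1RL1 was left, at -1.42. IL1RL1 reached 6 only in TFPIα arrays, so that filter favours a difference and the value is not read as a result. Of the values recomputed, 377 with an array left out and 294 under other settings stayed within their spread and on their side of the threshold, and 14 and 6 moved. The mean over probe sets gave no other value for the 10 genes of the family, each of which had 1 probe set, and was not run for the lists. Signals close to the filter, as for IL1B and IL33, limit what these arrays can show.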
